A study of Mus musculus with 4 samples.

Results

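The genes described here encode the proteins of the cytosolic ribosome. They were taken from the table by symbol: Rpl or Rps followed by a number, or Rplp0, Rplp1, Rplp2 or Rpsa, without the Rps6k kinases and the numbered pseudogenes. The pattern took 56 of 20699 named genes, of which 23 encode canonical proteins of the large subunit and 20 canonical proteins of the small subunit. The other 13 were the muscle form Rpl3l, 9 symbols written as paralogs (such as Rpl7l1 and Rps27l), Rps23rg1, Rps3a3 and Rps19bp1. Rps19bp1 encodes a binding partner of the small subunit protein RPS19 and not a subunit, and RefSeq lists Rpl6l, Rps12l1, Rps3a3 and Rps4l as pseudogenes.

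The samples were dissected heart chambers of mice 2 months old. The 4 groups were atria labelled Mef2a knockout (Mef2a-/-), atria labelled wild type (WT, Mef2a+/+), ventricles labelled Mef2a knockout and ventricles labelled wild type. Each group was measured on 1 array, with RNA pooled from 7 mice, and the study used mice of both sexes, so no group has a replicate and no difference below carries a test. Mef2a, a MADS-box transcription factor gene of striated muscle, stood at 10.41 in KO-labelled atria, 10.32 in WT atria, 10.34 in KO-labelled ventricles and 10.28 in WT ventricles (log2 intensity). Its probe set was therefore not lower on either knockout array. How the allele was made is not given in the sources used here, so the genotype labels have no check here and each knockout ratio below rests on them. The chamber labels went with their markers. All 5 atrial markers (Sln, Myl7, Myl4, Nppa and Bmp10) passed 2-fold towards the atria, and all 4 ventricular markers (Myl2, Myl3, Irx4 and Myh7) towards the ventricles, in both genotypes.

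A ribosome joins a small subunit, which reads the messenger RNA, to a large subunit, which forms the peptide bond. Each subunit is built from ribosomal RNA and many proteins, most of them made in matched amounts in every cell. The messenger RNAs of these proteins start with a run of pyrimidines, the terminal oligopyrimidine (TOP) tract, through which mTOR signalling controls their translation. Striated muscle also makes RPL3L, a close relative of the large subunit protein RPL3, which lies near the peptidyl transferase centre.

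All values are log2 intensities of probe sets, and a log2 ratio is the difference of 2 arrays. The brightness of a probe set depends on its probes, so levels are compared between arrays and not between genes. A gene counted as above the floor in a comparison when the brighter array of the pair reached 5.71, the median of all values. It was called at 1.5-fold for knockout against wild type and at 2-fold for atria against ventricles. Of the members, 40 were above the floor on all 4 arrays, 3 on some of them (Rpl3l and Rps27a among these) and 13 on none. Those 13 included 9 canonical genes: Rpl6, Rpl17, Rpl21, Rpl31, Rpl37, Rps3a1, Rps6, Rps25 and Rpsa. Rps6, whose protein is the best-known target of S6 kinase, stood at 3.33, 3.27, 2.89 and 3.16 in KO-labelled atria, WT atria, KO-labelled ventricles and WT ventricles, below the floor on every array. Of 77 canonical genes listed for the mouse, 34 had no probe set under their symbol and were not analysed here, among them the X-linked Rpl10, Rpl36a, Rpl39 and Rps4x. The values therefore cover part of the ribosome. Rack1, a ribosomal protein gene outside the symbol pattern, is given beside the members.

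The median value of the 56 members was 7.65 in KO-labelled atria, 7.79 in WT atria, 7.99 in KO-labelled ventricles and 8.12 in WT ventricles. Over the 43 canonical genes it was 8.29 in KO-labelled atria, 8.35 in WT atria, 8.195 in KO-labelled ventricles and 8.26 in WT ventricles. The order of the chambers thus depended on the genes taken. These medians include members below the floor and are not paired by gene, unlike the ratios below. Among the 40 members above the floor throughout, the range over the 4 arrays had a median of 0.36 and stayed under 0.5 in 32, or 80.0%. Over the 9663 named genes above the floor on all arrays the median range was 0.35, and 69.5% stayed under 0.5. The steadiest were Rps19bp1 (0.09), Rpl36al (0.13), Rpl18 (0.16), Rpl27a (0.18) and Rpl4 (0.19). Rpl18 lay between 11.71 and 11.87 on the 4 arrays. Among the widest ranges of these 40 were those of Rpl3 (1.18), Rpl30 (0.82), Rpl14 (0.77) and Rpl34 (0.57). Rpl3l had the widest range of all 56 members, at 3.49.

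Rpl3 and its muscle form Rpl3l had ratios of opposite sign in all 4 comparisons, although in the atrial knockout pair Rpl3l was measured at and below the floor. The ratios of a gene are differences of the same 4 values, so the comparisons are not independent of each other. Rpl3l, whose protein takes the place of RPL3 in ribosomes of heart and skeletal muscle, stood at 5.22 in KO-labelled atria, 5.72 in WT atria, 8.43 in KO-labelled ventricles and 8.71 in WT ventricles. It was well above the floor in both ventricular pools, just above it in WT atria and below it in KO-labelled atria. Rpl3 stood at 7.28 in KO-labelled atria, 6.94 in WT atria, 6.61 in KO-labelled ventricles and 6.11 in WT ventricles, the reverse order over the 4 arrays.

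**Figure D1:**
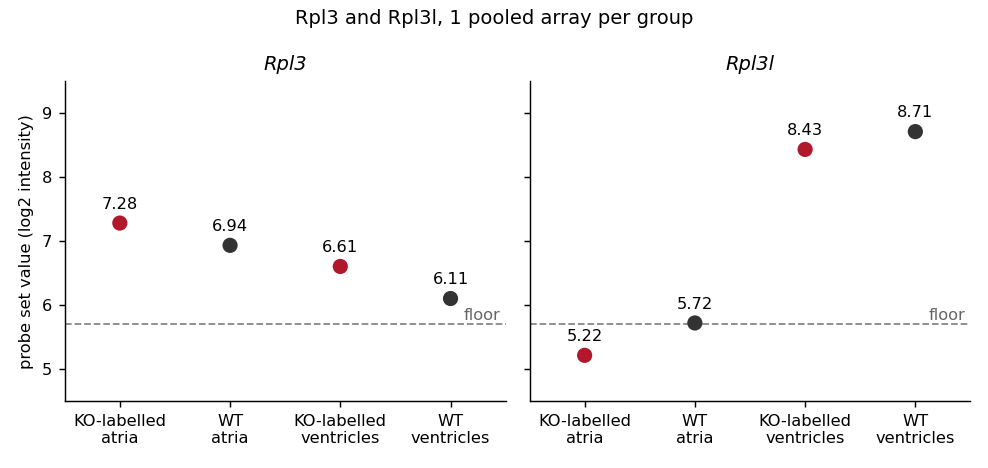
Probe set values (log2 intensity, y axis) of Rpl3 (left) and Rpl3l (right) on the 4 arrays (x axis), 1 point per pooled array, with the dashed line at the floor of 5.71. Rpl3 is highest in KO-labelled atria (7.28) and lowest in WT ventricles (6.11), and Rpl3l is lowest in KO-labelled atria (5.22) and highest in WT ventricles (8.71); heights are not comparable between the panels.

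Between the wild type chambers, Rpl3l was lower in atria with a log2 ratio of −2.99, which is 7.92-fold. Of the 10872 genes above the floor in that pair, 8 had a lower ratio. Rpl3, in contrast, was higher in atria by 0.83 (1.78-fold). In the knockout-labelled pair the ratios of atria over ventricles were −3.21 for Rpl3l and 0.68 for Rpl3. Rpl3l lay below the floor in KO-labelled atria, and set against the floor it was at least 6.62-fold lower there than in KO-labelled ventricles. In WT atria it lay just above the floor, so the size of its wild type chamber ratio rests on a value with little signal.

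The knockout ratios of the pair were smaller than the fold used to call a gene. Rpl3l was lower in KO-labelled than in WT pools by 0.51 in atria and 0.28 in ventricles (log2 ratios −0.51 and −0.28). For Rpl3 the knockout ratios were positive, at 0.35 in atria and 0.50 in ventricles. In ventricles 93 of 10546 genes had a higher ratio than Rpl3, and 413 had a lower ratio than Rpl3l. In atria 538 of 10893 genes had a higher ratio than Rpl3. The atrial knockout ratio of Rpl3l compares values at and below the floor, so its size and sign are less certain than those of the other comparisons. All 4 signs, and those of the chamber ratios, were kept by the 3 other scalings tried (median centring, quantile normalization, lowess centring), and the last took Rpl3l past 1.5-fold in atria (−0.60). A processed pseudogene of Rpl3 with a probe set of its own, Rpl3-ps1, stood at 10.35 in KO-labelled atria, 10.23 in WT atria, 9.67 in KO-labelled ventricles and 9.61 in WT ventricles. It also was higher in atria (0.62 between the wild type chambers), and its knockout ratios were 0.13 in atria and 0.06 in ventricles. Signal of a gene and its pseudogenes can mix on arrays where probes share sequence, and the probe sequences were not used here.

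RefSeq (GRCm38.p6) gives Rpl3l a pair of annotated starts, 4859 bases apart, and the stretch around each is shown because Rpl3l is the member with the largest chamber difference and the mice were labelled as lacking a MEF2 factor. Each stretch runs from 150 bases before the start to the 20th base of the transcript, on the plus strand. The upstream one lies at chr17:24727676-24727845 and the downstream one at chr17:24732535-24732704. Capitals mark a match to the MEF2 motif.
Rpl3l, upstream start: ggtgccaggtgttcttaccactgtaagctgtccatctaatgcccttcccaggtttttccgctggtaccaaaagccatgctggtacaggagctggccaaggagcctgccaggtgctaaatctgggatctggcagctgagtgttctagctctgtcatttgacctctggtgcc
Rpl3l, downstream start: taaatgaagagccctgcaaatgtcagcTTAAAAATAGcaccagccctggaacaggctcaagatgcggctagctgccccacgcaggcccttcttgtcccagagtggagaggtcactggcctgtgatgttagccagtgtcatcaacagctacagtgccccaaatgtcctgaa
The match begins 123 bases before the downstream start. RefSeq windows of 250 bases before to 50 bases after the start were at hand for 38 of the 56 members. Rpl3l was the single member with a MEF2 motif on either strand, 2.63% of the 38, against 3.70% of 27025 genes. With its pair of starts, more sequence was searched for Rpl3l than for a member with a single start. A match of letters is a description of the sequence only.

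The first comparison set KO-labelled atria against WT atria and asked how the members differed between the genotype labels. Of 43 members above the floor, 2 were called, both lower, against 3.47% of 10893 genes called in either direction (1.07% higher and 2.4% lower). Rpl14, a large subunit protein gene, stood at 6.0 in KO-labelled atria and 6.65 in WT atria, a log2 ratio of −0.65 or 1.57-fold lower. Rpl14 stayed past 1.5-fold under the 3 other scalings.

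The other members spread to both sides, more of them lower than higher. Of the 43 members 27 had negative and 16 positive ratios, with a median of −0.12, against a median of −0.04 and 57.0% negative over all genes above the floor. A smaller fold, a log2 ratio of 0.32, took 3 members as higher and 14 as lower, or 39.5% of the 43, against 17.1% of all genes (5.87% higher and 11.2% lower). The large subunit had a median of −0.13 over 18 genes, with 13 negative and 5 positive. The small subunit had 8 negative and 8 positive genes and a median of −0.02, whose sign turned under another scaling.

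The lower end held genes of both subunits. Rpl30, whose protein also binds its own transcript in yeast, stood at 10.05 in KO-labelled atria and 10.62 in WT atria (−0.57), just outside 1.5-fold, and passed it under median centring (−0.60). Rpl8 (−0.46), whose protein is among the most conserved of the large subunit, Rpl34 (−0.46), Rpl32 (−0.36) and Rpl22 (−0.35), which is dispensable for general translation but needed in T cell development, followed. Of the small subunit, Rps9 (−0.43), Rps15a (−0.42) and Rps14 (−0.41) lay in the same range. Rpl6l and Rps3a3, both listed as pseudogenes, stood at −0.52 and −0.35, and Rpl32l, a relative of Rpl32, at −0.36. All of these, Rpl3l and Rpl14 were among the 14 lower members past the smaller fold.

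At the higher end, Rps19, the gene most often mutated in human Diamond-Blackfan anaemia, stood at 8.91 in KO-labelled atria and 8.35 in WT atria, a ratio of 0.56 that lay just outside 1.5-fold and passed it under quantile normalization (0.62) and lowess centring (0.61). Rps27a, which makes a fusion of ubiquitin and a small subunit protein, stood at 5.91 in KO-labelled atria, above the floor, and at 5.39 in WT atria, below it (0.51). Rps4l (0.28), Rps10 (0.26), Rps20 (0.20), Rps21 (0.18) and Rps15 (0.16) were the next small subunit symbols. Of the stalk proteins, which recruit elongation factors to the large subunit, Rplp0 was at 0.23, Rplp1 at 0.06 and Rplp2 at −0.02, the last with its sign turned under other scalings. Rack1, a scaffold protein of the small subunit head, was at −0.28. Rps3a1 had the lowest atrial ratio of all members, −0.92, with 4.58 in KO-labelled atria and 5.49 in WT atria, but lay below the floor on all 4 arrays.

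Rpl14 and Rps18 are shown as examples of an annotated start with the form of a TOP tract, a feature known for this family. Both are among the 8 members with such a start, and most of the 38 members with a window had none at their annotated start. Both stretches run from 150 bases before the RefSeq start to the 20th base of the transcript (GRCm38.p6). Rpl14 lies at chr9:120571367-120571536 on the plus strand and Rps18 at chr17:33955646-33955815 on the minus strand. Capitals mark a C at the annotated start with the 4 pyrimidines after it and, in Rps18, a match to CCGGAAGT, letters that ETS factors such as GABP are known to bind.
Rpl14: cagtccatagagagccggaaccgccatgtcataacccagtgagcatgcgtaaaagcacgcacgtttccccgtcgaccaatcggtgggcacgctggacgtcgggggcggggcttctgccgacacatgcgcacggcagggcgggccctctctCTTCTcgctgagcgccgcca
Rps18: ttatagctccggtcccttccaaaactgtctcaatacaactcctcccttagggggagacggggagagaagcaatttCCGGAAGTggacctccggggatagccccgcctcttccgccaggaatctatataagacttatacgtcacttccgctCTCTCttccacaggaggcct
A start of this kind was found in 8 of the 38 members with a window, or 21.1%, against 3.01% of 27025 genes. CCGGAAGT on either strand was found in 8 members (21.1%) against 4.31% of genes, AAGATGGC, the core that YY1 is known to bind, in 4 members (10.5%) against 3.19%, and TATAAA in 4 members (10.5%) against 15.7%. TATAAA can lie inside the MEF2 motif, and the other motifs share no such overlap. Rps18 has a further CCGGAAGT 157 bases before its start, outside the stretch shown, and Rpl14 has none in its window. The atrial knockout ratios were −0.65 for Rpl14 and −0.14 for Rps18.

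**Figure D2:**
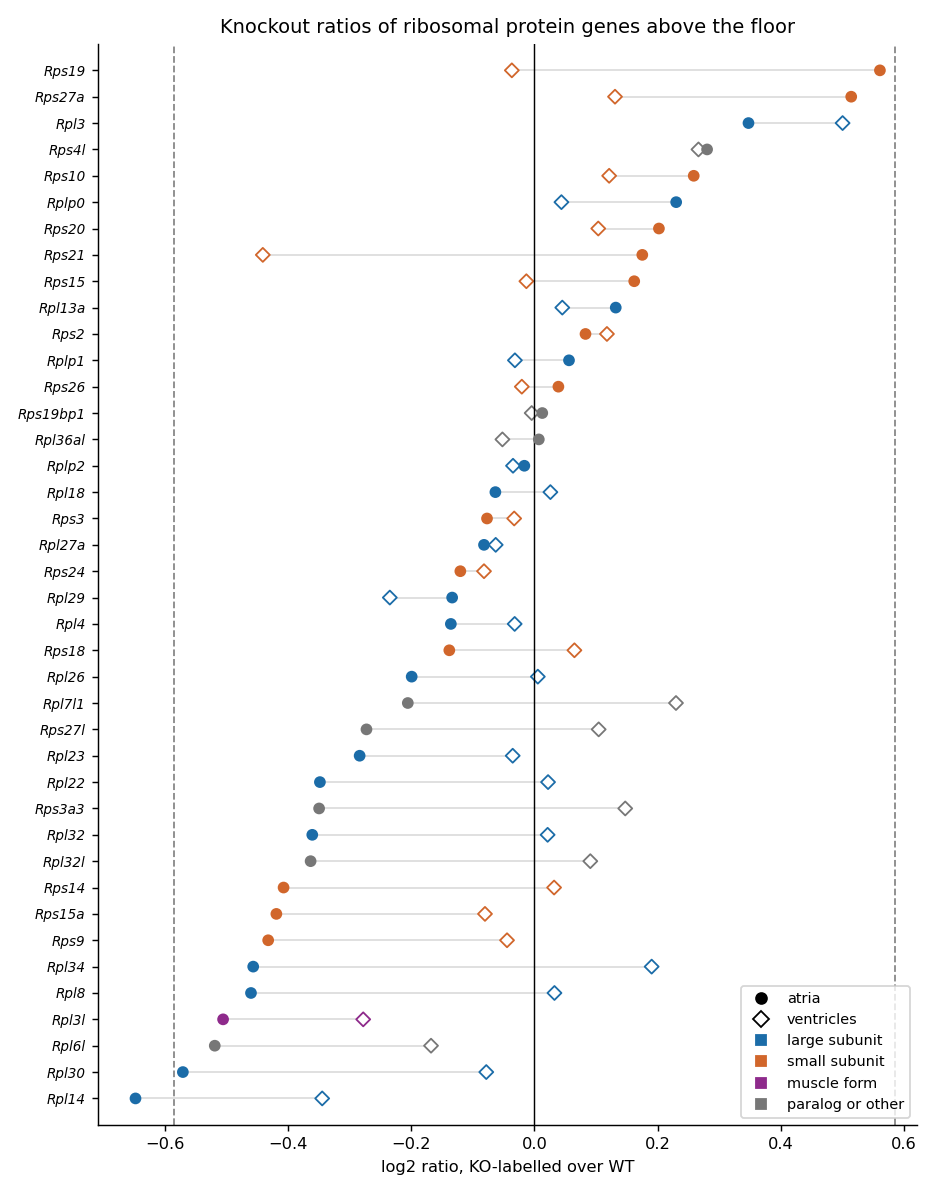
Log2 ratio of KO-labelled over WT (x axis) for the members described here that were above the floor in either chamber (y axis, sorted by the atrial ratio), with filled circles for atria, open diamonds for ventricles, colour for the class and dashed lines at 1.5-fold. Atrial ratios run from −0.65 (Rpl14) to 0.56 (Rps19), and most ventricular ratios lie closer to 0, with Rps21 (−0.44) and Rpl3 (0.50) as the widest shown; the ventricular value of Rps27a (0.13) lies below the floor.

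The second comparison asked the same of KO-labelled against WT ventricles. Of 42 members above the floor 1 was called, against 1.24% of 10546 genes (0.531% higher and 0.711% lower). The smaller fold added Rpl3 as higher and Rps21 (−0.44) and Rpl14 (−0.34) as lower, 4 members or 9.52% of the 42, against 5.3% of all genes (2.55% higher and 2.75% lower). Rps21, a small subunit protein gene, stood at 6.50 in KO-labelled ventricles and 6.94 in WT ventricles.

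The other ventricular ratios were small. The median was −0.02, with 23 negative and 19 positive, against 0.003 over all genes, and median centring turned its sign. Among those below −0.1 were Rpl3l, Rpl29 (−0.23), a large subunit protein gene needed for full growth in mice, and Rpl6l (−0.17). Above 0.1 came Rpl3, Rps4l (0.27), Rpl7l1 (0.23), Rpl34 (0.19), Rps3a3 (0.15), Rps10 (0.12), Rps2 (0.12), Rps27l (0.10), a target of p53, and Rps20 (0.10). Several genes of the lower end in atria were near 0 in ventricles: Rpl30 was at −0.08, Rps15a at −0.08, Rps9 at −0.04, Rps14 at 0.03 and Rpl8 at 0.03. Rack1 was at −0.07.

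Set side by side, the knockout comparisons of the chambers share no array. Of 42 members above the floor in both, 15 were negative in both, 7 positive in both and 20 of opposite sign, 12 of them negative in atria and positive in ventricles. The same sign was found in 52.4% of members and 57.4% of the 10235 genes above the floor in both. Across members Pearson's r of the 2 ratios was 0.19 and Spearman's rho 0.25, against 0.34 and 0.25 across all genes. Genes are not independent replicates, so these are descriptions. Past the smaller fold in both chambers, 1 of the 42 members was lower (Rpl14), against 1.02% of genes. Likewise 1 of the 42 was higher (Rpl3), against 0.772% of genes. The SD of the members' ratios was 0.29 in atria and 0.18 in ventricles, and over all genes 0.26 and 0.17.

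The third comparison set the chambers of wild type mice against each other. Of 42 members above the floor, Rpl3l was the only one called at 2-fold, against 6.0% of 10872 genes (3.77% higher and 2.23% lower). The other members leaned to the atria by small amounts. The WT atria array is also the reference of the atrial knockout ratio. A high value on that array makes that ratio lower and this one higher, so they are not separate observations. Of the 42, 29 were positive and 13 negative, with a median of 0.10, against −0.01 and 48.4% positive over all genes. The member median stayed between 0.07 and 0.14 under the 3 other scalings. The canonical genes alone had a median of 0.12, with 25 of 33 positive.

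Rpl3 and Rpl30 stood out among them and were the 2 members at least 1.5-fold higher in atria, beside Rpl3l as the 1 lower, against 16.1% of all genes at that fold (8.32% higher and 7.76% lower). Rpl30 stood at 10.62 in WT atria and 9.87 in WT ventricles, a ratio of 0.75. Next came Rps14 (0.37), Rpl13a (0.37), whose protein also silences inflammatory transcripts in myeloid cells, Rps3 (0.35), a small subunit protein gene whose product also acts in DNA repair, Rps26 (0.32), Rps3a3 (0.29) and Rpl6l (0.28). Rack1 was at 0.29. On the other side were Rps19 (−0.39), Rps21 (−0.34), Rplp2 (−0.26), Rpl29 (−0.23), Rps15 (−0.21), Rps27l (−0.13), Rpl14 (−0.12), Rps2 (−0.11) and Rps19bp1 (−0.09). Rplp1 was at 0.16 and Rplp0 at −0.01, and the sign of Rplp0 turned under other scalings. In KO-labelled atria against KO-labelled ventricles, which uses the other 2 arrays, Rpl3l was again the only member of 43 past 2-fold, against 6.3% of 10982 genes (3.35% higher and 2.95% lower). At 1.5-fold 3 members passed, against 18.0% of genes (7.69% higher and 10.3% lower). The median there was −0.02, with 19 positive and 24 negative, and its sign turned under quantile normalization and lowess centring. Rpl3 and Rpl3l were among those 3.

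Genes of the mitochondrial ribosome, which translates the few messages of mitochondrial DNA, leaned the other way between the wild type chambers. The 75 of them above the floor had a median of −0.52 in WT atria against WT ventricles. Of these, 70 were negative and 5 positive, against 48.4% positive over all genes. At 2-fold 1 was called higher (Mrps6) and 4 lower (Mrpl14, Mrpl12, Mrps18a and Mrpl36), 6.67% of the 75, close to the 6.0% of all genes. At 1.5-fold 1 was higher and 29 lower, 40.0% of the 75, against 16.1% of all genes (8.32% higher and 7.76% lower). The cytosolic members had a median of 0.10 in the same pair. In KO-labelled atria against KO-labelled ventricles the mitochondrial median was −0.56, with 72 negative and 3 positive, and the cytosolic median −0.02. Both were thus negative in that pair, and the sign of the cytosolic median turned under other scalings. In the knockout comparisons the mitochondrial genes had medians of −0.05 in atria, with 1 called lower, and 0.003 in ventricles, and both signs turned under other scalings. No test could be made of the difference between the families.

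**Figure D3:**
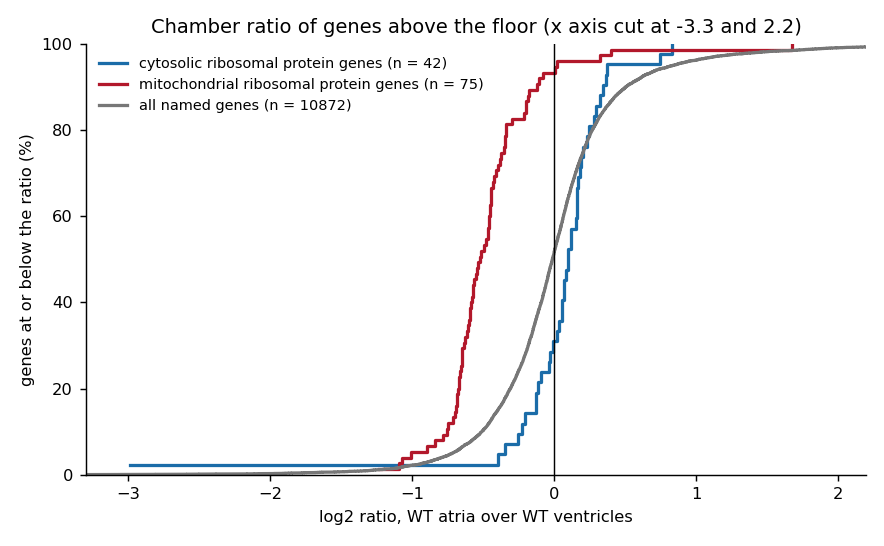
Cumulative share of genes (y axis, percent) at or below each log2 ratio of WT atria over WT ventricles (x axis, shown from −3.3 to 2.2), for genes above the floor, in blue, red and, for all named genes, grey. The curve of the 42 cytosolic ribosomal protein genes lies to the right of 0 for most genes (median 0.10) with Rpl3l alone at −2.99, while the 75 mitochondrial ribosomal protein genes lie to the left (median −0.52).

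Other genes of protein synthesis were followed through lists. Of 36 translation initiation genes above the floor in the atrial knockout pair, 29 were negative and 7 positive, with a median of −0.12, against 57.0% negative over all genes. Eif4e (−0.65), the cap-binding protein gene, and Eif3e (−0.63) were called lower and 0 higher, 5.56% of the 36 against 3.47% of all genes. Of 10 elongation and termination genes 0 were called and the median was −0.12, where Eef1b2 (−0.36) and Gspt1 (−0.25) were widest. Ribosome biogenesis genes had a median of −0.08 over 49 genes, where Npm1 (nucleophosmin, −0.63) was called lower and 0 were called higher, or 2.04%. Of 10 RNA polymerase I genes, with a median of −0.09, Taf1d (−0.71) was called lower. The list of 17 mTOR and TOP control genes had 0 called and a median of 0.03 that changed sign with the scaling, with Rps6kb1 (−0.47), the S6 kinase gene, and Deptor (−0.28) widest. Other genes with TOP transcripts, which share members with the first lists, had a median of −0.15 over 14 genes, with Eif3e and Npm1 called lower.

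In ventricles these lists stayed near 0 in the knockout pair. The medians were 0.03 for initiation, 0.05 for elongation and termination, −0.002 for biogenesis, −0.02 for RNA polymerase I, 0.02 for mTOR and TOP control and −0.04 for other TOP genes, and those of biogenesis and RNA polymerase I changed sign with the scaling. Hnrnpa1 (−0.59), in the last list, was the only gene of these lists called, 6.67% of the 15 genes there against 1.24% of all genes. The widest in the others were Eif4a1 (0.28) and Eif3l (0.20), Eef1g (−0.54) and Eef1a1 (0.20), Nop58 (0.26) and Noc4l (−0.20), Taf1d (−0.28) and Taf1c (−0.19), and Myc (0.34) and Larp4 (0.22). Between the wild type chambers 6.0% of all genes were called and 51.5% were negative. Biogenesis genes had a median of −0.17 there, with 47 of 54 negative. Rrs1 (−1.29) was called lower, 1.85% of the 54. Initiation genes had −0.08 with 0 called, where Eif5b (−0.69) and Eif2b4 (−0.63) were widest. Elongation genes had a median of −0.22, with Eef1a1, the widely expressed form of elongation factor 1 alpha, called higher in atria at 1.06. That was 9.09% of the 11 genes. RNA polymerase I genes had −0.11, with Polr1e (−0.43) and Polr1a (−0.38) widest. The mTOR and TOP control genes had −0.02, with Larp4 (−0.86) and Max (0.81) widest. Other TOP genes had 0.08, with Eef1a1 the gene called, 6.67% of the 15.

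**Figure D4:**
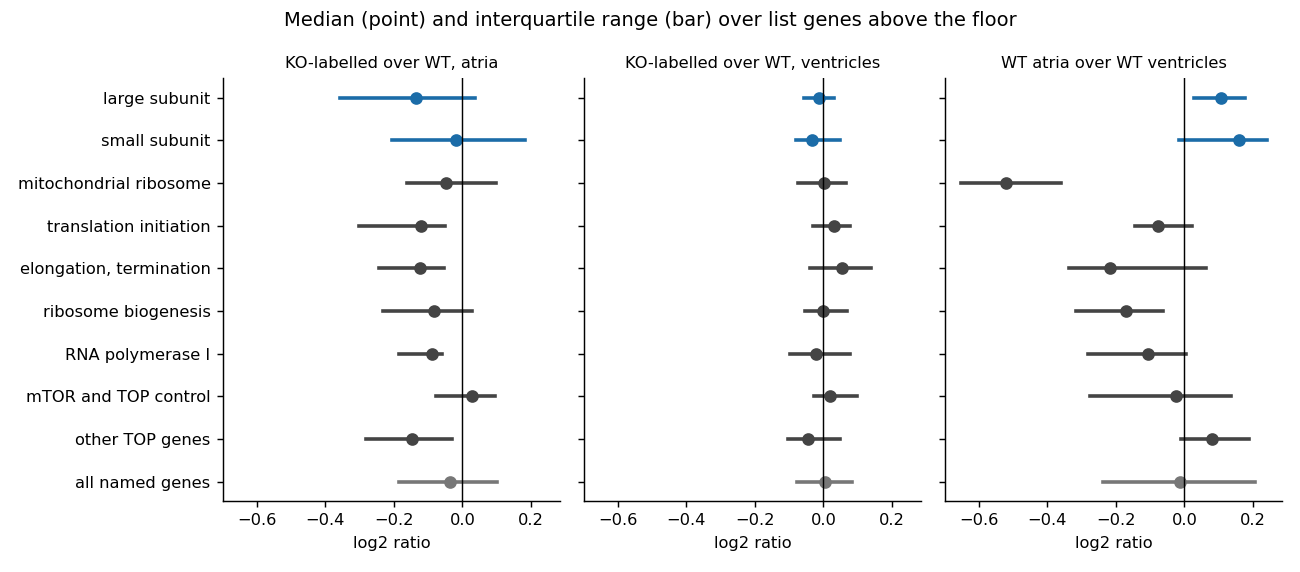
Median (point) and interquartile range (bar) of the log2 ratio (x axis) over genes above the floor in each list (y axis) for the 3 comparisons. In the atrial knockout pair most lists lie left of 0 (large subunit −0.13, initiation −0.12), in ventricles all lie near 0, and between the wild type chambers the mitochondrial ribosome (−0.52) and biogenesis (−0.17) lie left while the cytosolic subunits lie right (0.11 and 0.16).

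Cell type markers were set beside these ratios, and in bulk tissue fewer cells of a type and less RNA per cell cannot be told apart. All 10 fibroblast markers were above the floor. In KO-labelled against WT atria 9 of the 10 were negative, with a median of −0.34 and a mean level of 8.86 in KO-labelled atria and 9.26 in WT atria. In ventricles 9 of 10 were negative, against 48.7% of all genes, with a median of −0.15 and 0 called. Mean levels were 8.24 in KO-labelled and 8.39 in WT ventricles. Between the wild type chambers all 10 had positive ratios (median 0.83). The 7 epicardial markers were all higher in WT atria than in WT ventricles, with a median of 1.82, and had a median of 0.01 in the atrial knockout pair, which changed sign with the scaling. Endothelial markers (8 genes) had medians of 0.10 in the atrial and 0.04 in the ventricular knockout pair, and −0.07 between the wild type chambers. Macrophage markers had 0.06 and −0.19 in the knockout pairs, with 8 of 9 negative in ventricles, and 0.06 between the chambers. The markers of the chambers themselves also differed between the ventricular pools. All 4 atrial markers above the floor were lower in KO-labelled than in WT ventricles, with a median of −0.43 and Sln (−0.85) past 1.5-fold. The ventricular markers had a median of 0.16 there, with Myh7 (0.99) past 1.5-fold. Cardiomyocyte markers had medians of −0.03 in both knockout pairs and −0.09 between the wild type chambers, of which the atrial knockout and chamber medians changed sign with the scaling. The KO-labelled atria array was also more compressed, with an interquartile range of 2.98 over all named genes, against 3.21, 3.20 and 3.19 on the WT atria, KO-labelled ventricles and WT ventricles arrays. Under quantile normalization, which makes the arrays' distributions equal, the atrial knockout median was −0.07 for the members and 0.01 for all genes. The members' median minus that of all genes was −0.09 there and −0.08 in the values as deposited. With canonical genes only, in the values as deposited, it was −0.05. The part of these markers and of the compression in the members' ratios was not tested.

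Numbered pseudogenes of ribosomal protein genes, which the symbol rule leaves out, gave a view from other probe sets. Of 82 with a probe set, 39 were above the floor on all arrays, and 23 of these belonged to 13 of the members. In KO-labelled against WT atria 18 of these 23 were negative, with a median of −0.31, against 57.0% negative over all genes above the floor. In ventricles 11 were negative, against 48.7% of all genes, and the median was 0.007. Between the wild type chambers 16 were positive (median 0.09), against 48.4% of all genes. Rpl31-ps17 had the lowest atrial ratio among the 23, 6.90 in KO-labelled atria and 8.17 in WT atria (−1.27). Rps15-ps3 had the highest, 7.22 in KO-labelled atria and 6.83 in WT atria (0.39). These pseudogenes and the members may share probes or transcripts, so they are no independent measurement of the members.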

How the data were processed

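Total RNA of dissected atria and ventricles was pooled from 7 mice per group, labelled with biotin and hybridised to 1 array per group. The deposited values are log2 probe set intensities. RMA and affy are the tools named for them, per the submitters' processing notes, without versions, array design or genome build. The table held 21212 probe sets. Of these, 18786 had 1 symbol in the platform annotation, 6 had several, and 1917 that it did not list were named by matching the number in the probe set name to the RefSeq gene table (GRCm38.p6). In 99.8% of the annotated probe sets that number was the annotated gene number. In all 509 stayed unnamed. Of the 56 members 8 were named by number, among them Rpl6l, Rpl18, Rps3a3, Rps12l1 and Rps27a. Counts and medians cover all 56 members, and some members are not reported by name here. For a symbol with several probe sets the brightest was kept, which left 20699 genes.

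Comparisons were differences of 2 log2 values, with the floor and folds given above. With 1 array per group no test or error was possible, and precision is limited by the number of arrays. The members and lists were chosen with earlier results of these data known. Members named were those past the fold, the 10 highest and 10 lowest per comparison, paralogs, stalk and X-linked genes, and the 5 widest and 5 steadiest over arrays; from other lists, up to 3 past the fold per direction or the 2 widest. Mitochondrial and pseudogene examples were chosen after their values were seen. The alternatives were 3 scalings (median centring, quantile normalization, lowess centring), no floor or a floor at the 75th percentile (7.27), other folds, canonical genes only, and annotation symbols only. Python 3.11.15 with pandas 2.3.3 and statsmodels 0.14.6 was used, and the calling step was tested on simulated data. Promoter sequences are from RefSeq.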

Additional observations from a re-analysis of the deposited data

Results flagged for a closer look

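For 3 of the members described here the knockout ratios of the chambers had opposite signs and lay at least 1.5-fold apart. The share of all genes that met this rule was not computed, so the count has no background to be read against. The difference between the chambers was not tested, since each ratio rests on 1 array per group. For Rpl34 the ratios were −0.46 in atria and 0.19 in ventricles, a difference of atria minus ventricles of −0.65. Rps21 stood at 0.18 in atria and −0.44 in ventricles (0.62). Rps19 was at 0.56 in atria and −0.04 in ventricles (0.60), so its opposite sign rests on a very small ventricular ratio.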

How the results depend on the processing

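No paired analysis was possible because each group has 1 array, and for the same reason no replicate could be left out. The count of called members was 2 in KO-labelled against WT atria and became 4 under lowess centring, 1 with a floor at the 75th percentile, 1 with annotation symbols only and 17 at a smaller fold (log2 ratio 0.32). In KO-labelled against WT ventricles the count was 1 and became 0 under quantile normalization, with the higher floor and with annotation symbols only, and 4 at the smaller fold. In atria against ventricles the count was 1 in each genotype and became 0 with canonical genes only, which leaves out Rpl3l, and 3 in each at 1.5-fold. The member median in KO-labelled against WT ventricles reversed to 0.0092 under median centring. In KO-labelled atria against KO-labelled ventricles it reversed to 0.0537 under quantile normalization, 0.0788 under lowess centring and 0.0622 with canonical genes only. The cause of these moves was not tested where none is given. The medians of KO-labelled against WT atria and of WT atria against WT ventricles kept their signs under all 7 alternatives run for them. Of 82 values of called members, Rpl3 and Rpl3l under an alternative, 0 changed sign. Only the 3 scalings altered these ratios, since floors, folds and gene sets leave the ratio of a single gene as it is. The other values could not have changed sign. Differences near the floor are limited by signal over background.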
